A study of Mus musculus with 6 samples.

Results

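Arhgap10 gave 20 of the 3662 circular RNAs (circRNAs) listed in differentiating white adipocytes of the mouse, more than any other of the 2018 parental genes. The members were chosen by position as all circRNAs on the minus strand of chromosome 8 between 79774265 and 80041806, the bounds of Arhgap10 in the genome build mm9. The gene was picked for this number of isoforms, so the number itself is a description here. The nearest circRNAs outside the bounds on the same strand lie clear of the gene and come from Large, ending at 75864185, and from Smad1, starting at 81895683.

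Cells of the stromal vascular fraction, the mixed cells left when adipocytes are removed from a fat pad, were taken from the inguinal fat of female C57BL/6 mice (C57BL/6J in the study's methods) that were 6 weeks old. They were grown close to confluence (D0, proliferation), then kept for 4 days in induction medium with insulin, dexamethasone and 3-isobutyl-methylxanthine (D4). A further 4 days in medium with 200 nM insulin and 10 nM T3 followed (D8). All groups share the strain, the sex, the age and the depot, while the medium and the days in culture differ by stage. No group carries a genetic change, and each stage has 2 replicates, 6 libraries in all.

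Ribosomal and linear RNA were removed before sequencing, and each value is the number of reads across a back-splice, the joint where the end of a later exon meets the start of an earlier one. The D0 libraries held 30110 and 32310 circRNA reads, those of D4 43069 and 41658, and those of D8 45371 and 50672. A level is given as circCPM, reads per 1000000 circRNA reads of the library, so 1 read is worth 19.7 to 33.2 circCPM. A value of exactly 1 read occurs 0 times in the table, and a listed 0 can therefore have been 1 read. Where both libraries of a stage are listed at 0, no fold against it is printed. Reads carry no molecular identifiers, so intervals cover counting error only. The study calls the replicates biological, without naming the animals or cultures behind them, and p-values measure only the spread between these samples.

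Arhgap10, also known as GRAF2, encodes a RhoGAP of the GRAF family, which carries a BAR domain, a PH domain, a RhoGAP domain and an SH3 domain. RhoGAPs switch small GTPases of the cytoskeleton off by speeding GTP hydrolysis, and RhoGEFs switch them on. These GTPases set actin tension and cell shape, which change as a spread preadipocyte becomes a rounded adipocyte. A circRNA arises when the spliceosome joins a downstream donor to an upstream acceptor of the same transcript, and 1 gene can give many circles when several donors and acceptors are used. The circle lacks a cap and a tail and is long-lived, and a back-splice count says nothing of the linear mRNA.

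Exons are numbered along the GENCODE transcript of Arhgap10 with 23 exons and 786 codons. The joints of the 8 circRNAs that the results turn on are printed next from the mm9 genome, as the 6 with the most reads plus those named by a test or by the study. The 25 lower-case bases end the last exon of the circle, and the 25 capitals start its first exon.
Exons 14 to 18: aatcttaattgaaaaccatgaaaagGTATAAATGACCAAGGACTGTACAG
Exons 14 to 19: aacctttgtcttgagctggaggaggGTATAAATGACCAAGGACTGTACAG
Exons 14 to 16: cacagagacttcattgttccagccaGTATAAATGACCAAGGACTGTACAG
Exons 14 to 15: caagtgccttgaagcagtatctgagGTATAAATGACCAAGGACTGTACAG
Exons 16 to 18: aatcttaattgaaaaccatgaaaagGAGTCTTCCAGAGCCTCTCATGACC
Exons 12 to 16: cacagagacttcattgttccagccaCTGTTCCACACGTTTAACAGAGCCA
Exons 9 to 13: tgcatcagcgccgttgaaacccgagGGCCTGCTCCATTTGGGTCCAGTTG
Exons 2 to 3: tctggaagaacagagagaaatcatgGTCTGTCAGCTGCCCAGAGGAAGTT
The first 4 share their capitals, since they enter at the same acceptor, the start of exon 14. The circles of exons 14 to 18 and 16 to 18 share their lower-case bases, since they leave from the donor of exon 18. Those of exons 14 to 16 and 12 to 16 share the donor of exon 16. On the genome these circles run from chr8:79868539-79889059 (exons 14 to 18), chr8:79834630-79889059 (14 to 19), chr8:79875513-79889059 (14 to 16), chr8:79882446-79889059 (14 to 15), chr8:79868539-79875571 (16 to 18), chr8:79875513-79908695 (12 to 16), chr8:79906624-79935027 (9 to 13) and chr8:79974592-79974822 (2 to 3), all on the minus strand. The study calls the circle of exons 12 to 16 circ_Arhgap10_1 and that of exons 9 to 13 circ_Arhgap10_2. It lists both among its circRNAs that differed across the stages (DESeq2 likelihood ratio test, adjusted p under 0.05).

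All 20 circles begin and end at annotated exon edges, with AG before the first exon and GT after the last. They use 10 first exons and 10 last exons, and span 2 to 9 exons with a median of 4.5. Spliced, they would hold 158 to 911 bases with a median of 400.5, and 8 of the 20 lengths are multiples of 3. Exons 1, 4, 5 and 23 lie in no circle, so the first exon with its cap site and the last exon with its 3′ end are both left out. All other exons are coding throughout, and exons 13 and 21 are each in 2 of the 3 long annotated transcripts.

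The circles crowd in the middle of the gene. Exon 16 lies within the span of 11 circles that hold 66.8% of the Arhgap10 reads, exons 17 and 18 within the span of 58.8%, and exons 20 to 22 within 0.364% to 0.532%. Exon 14 opens 4 circles with 44.7% of the reads, exon 9 opens 2 with 21.1%, exon 16 opens 2 with 14.4% and exon 12 opens 5 with 8.69%. The donor of exon 18 closes 4 circles with 52.7% of the reads, and the donor of exon 13 closes 2 with 20.7%. All 5 circles that begin at exon 12 are absent from circBase, the public catalogue of circRNAs, and all 4 that begin at exon 14 are in it. In total 10 of the 20 are absent, with 32.5% of the reads, against 1304 of the 3662 circRNAs (35.6%).

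**Figure D1:**
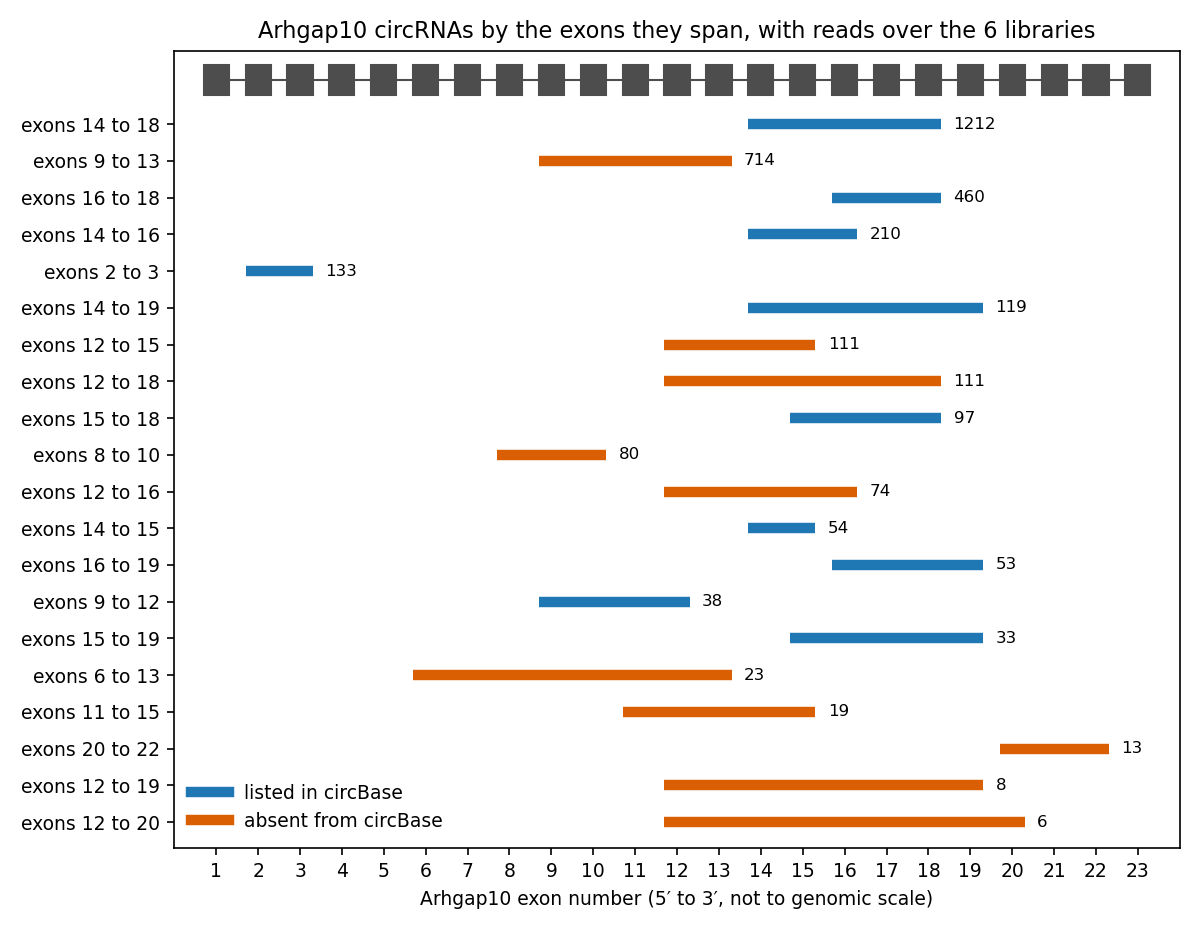
Horizontal bars show the exons each of the 20 Arhgap10 circRNAs spans, on an axis of exon number from 5′ to 3′ that is not to genomic scale, with the reads over the 6 libraries printed at the right of each bar. The bars crowd between exons 12 and 19, and those of exons 14 to 18 (1212 reads) and 9 to 13 (714 reads) hold the most reads.

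The most abundant circle joins exons 14 to 18, codons 410 to 572 of the reading frame, into 488 bases, and its 1212 reads were 34.0% of the 3568 reads of the gene. The circle of exons 9 to 13 followed with 714 reads (20.0%, 396 bases), and that of exons 16 to 18 with 460 (12.9%, 325 bases). These 3 held 66.9% of the reads and the top 6 held 79.8%. Among the 20 genes with 8 or more circRNAs, the share of the leading circle ran from 17.2% to 68.8% with a median of 38.7%, and Arhgap10 ranked 14th from the highest.

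The sum over all Arhgap10 circles was highest on D8. The D0 libraries had 335 and 384 reads, those of D4 407 and 398, and those of D8 923 and 1121. As circCPM the sums in the D0 libraries were 11126 and 11885, in those of D4 9450.0 and 9554, and in those of D8 20343 and 22123, with means of 11505 ± 537 (SD, n = 2), 9502 ± 73.6 and 21233 ± 1258. The 3 stages do not overlap, and D4 is the lowest. Of all circRNA reads Arhgap10 gave 1.11% and 1.19% in the D0 libraries, 0.945% and 0.955% in those of D4, and 2.03% and 2.21% in those of D8, and it ranked 2nd among the parental genes by reads over all libraries. The log2 ratio of the mean sums was 0.88 for D8 against D0, 1.16 for D8 against D4 and -0.28 for D4 against D0. A sum over chosen members is given without a test. In mixed cells, fewer cells of a type and less RNA per cell cannot be told apart.

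Most single circles were highest on D8, as the sum was. The stage mean was highest on D8 in 17 of the 20, where 33.3% of all circRNAs were highest on D8. The exceptions are exons 14 to 15 and 14 to 19, highest on D0, and exons 12 to 19, highest on D4. The mean was lowest on D0 alone in 10 circles and on D4 in 7, and 3 circles were listed at 0 at both stages. Both D8 libraries lay above both D4 libraries in 15 of the 20, where 27.8% of all circRNAs do so, below them in 0, against 21.2%, and above both D0 libraries in 13, against 25.1%. Lower on D8 than on D0 without overlap was 1 circle, exons 14 to 15, against 26.3% of all circRNAs. Between D0 and D4, 5 circles were higher on D4 without overlap (23.0% of all circRNAs) and 4 lower (27.2%). All these groups are 2 against 2 libraries. A circRNA is listed only where both replicates of some stage had 2 or more reads. Exons 6 to 13, 11 to 15, 20 to 22 and 12 to 20 met this rule on D8 alone. The counts that favour D8 thus include circles listed through D8, and the shares over all circRNAs include circles listed through 1 stage too.

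The number of circles detected was highest on D8. Counting a circle as detected when both replicates had at least 2 reads, D0 had 12 of the 20, D4 had 14 and D8 had 18, with 10 detected at all 3 stages. The D8 libraries are also the deepest, and thinned to 30110 reads per library the numbers were 12, 14 and 17. D0 and D4 tied under other rules, at 11 and 11 (16 on D8) with 5 or more reads in both replicates and at 15 and 15 (20 on D8) with 2 or more in either. Detected on D8 alone were 4 circles, of exons 6 to 13, 11 to 15, 20 to 22 and 12 to 20, with 6 to 23 reads each over the 6 libraries. Exons 11 to 15 had 12 and 7 reads on D8 and was listed at 0 in the other 4 libraries. Exons 20 to 22 likewise had 4 and 9 reads on D8, and exons 12 to 20 had 3 and 3.

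The circle of exons 14 to 18 dipped on D4 and was highest on D8. The D0 libraries had 5115 and 4859 circCPM, those of D4 2949 and 2881, and those of D8 6634 and 6966, with stage means of 4987 ± 181 (SD, n = 2), 2915 ± 48.2 and 6800.3 ± 235. The stages do not overlap and the replicates lie close together. The log2 fold change was 1.22 ± 0.20 (SE) for D8 against D4 (edgeR adjusted p = 0.147), 0.54 ± 0.20 for D8 against D0 (adjusted p = 0.193) and -0.68 ± 0.20 for D4 against D0 (adjusted p = 0.117). Across the 3 stages its adjusted p was 0.0540, with a range of 0.00290 to 0.242 over the alternatives. It was 0.0457 with no filter on low counts, 0.0262 with listed zeros set to 1 and 0.00290 with DESeq2. It was 0.0246 without D0 replicate 1 and 0.0334 without D0 replicate 2, and 0.199 and 0.242 without D4 replicate 1 or 2. D8 against D4 had an adjusted p of 0.00108 with DESeq2 and of 0.0352 without D0 replicate 1, but of 0.480 with DESeq2 and no filter, and the other alternatives gave up to 0.532 (without D4 replicate 2).

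The circle of exons 9 to 13 was about level on D0 and D4 and high on D8. Its levels were 1162 and 2197 circCPM in the D0 libraries, 1974 and 1608 in those of D4, and 4430 and 5032 in those of D8, with means of 1680 ± 732 (SD, n = 2), 1791 ± 258 and 4731 ± 426. The D0 and D4 libraries overlap and both D8 libraries lie above them. The log2 fold change was 1.59 ± 0.33 for D8 against D0 (edgeR adjusted p = 0.0699) and 1.40 ± 0.33 for D8 against D4 (adjusted p = 0.207). Across the 3 stages the adjusted p was 0.0577 (0.00732 to 0.168 over the alternatives). It was 0.00732 with DESeq2, 0.0412 with DESeq2 and no filter, 0.0457 in edgeR with no filter and 0.0263 with listed zeros set to 1. It was also 0.0246 without D0 replicate 1 and 0.0301 without D0 replicate 2. D8 against D0 had an adjusted p of 0.0181 with DESeq2, 0.0378 with zeros set to 1 and 0.0242 without D0 replicate 2, with up to 0.131 in the other alternatives. D8 against D4 had 0.0463 with DESeq2, and no other alternative passed, with 0.546 for DESeq2 and no filter and up to 0.597 (without D4 replicate 2).

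The circle of exons 16 to 18, which uses the donor of the leading circle with a later acceptor, rose between D0 and D8. Its levels were 731 and 959 circCPM in the D0 libraries, 1741 and 2040.4 in those of D4, and 2843 and 2329 in those of D8, with means of 845 ± 162 (SD, n = 2), 1891 ± 211 and 2586 ± 364. The stages do not overlap, and unlike the leading circle it did not dip on D4. The log2 fold change was 1.70 ± 0.31 for D8 against D0 (edgeR adjusted p = 0.0488) and 1.25 ± 0.31 for D4 against D0 (adjusted p = 0.0771). The D8 call sits at the threshold, and the adjusted p without each library in turn was 0.0695 (D0 replicate 1), 0.0507 (D0 replicate 2), 0.0964 (D4 replicate 1), 0.0971 (D4 replicate 2), 0.108 (D8 replicate 1) and 0.0543 (D8 replicate 2). The call was also lost with column totals alone as library sizes (adjusted p = 0.0625), RLE factors (0.0580) or no filter (0.0714). A replicate block (0.0924) and DESeq2 without a filter (0.0646) ended it too. It held with DESeq2 (0.0181) and with listed zeros set to 1 (0.0265). The log2 fold change stayed between 1.56 and 1.93 over all alternatives. Across the 3 stages the edgeR adjusted p was 0.0577. With all libraries it ran from 0.0324 (zeros set to 1) to 0.124 (DESeq2 and no filter).

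The circle of exons 14 to 15 was listed on D0 and D8 and at 0 on D4. The D0 libraries had 19 and 13 reads, those of D4 0 and 0, and those of D8 12 and 10. As circCPM this is 631 and 402 on D0 against 264 and 197 on D8. It fell from D0 to D4 (edgeR adjusted p = 0.0407). With all libraries the call held with RLE factors (edgeR adjusted p = 0.0394), column totals (0.0408) and listed zeros set to 1 (0.0212). It also held with DESeq2 (0.00843) and with DESeq2 and no filter (0.0159), but not in edgeR with no filter. The call was lost without D0 replicate 1 (adjusted p = 0.124), D0 replicate 2 (0.0643), D4 replicate 1 (0.141) or D4 replicate 2 (0.131), and with a replicate block (0.0806). The circle of exons 12 to 16 had the same gap, with 6 and 10 reads in the D0 libraries, 0 and 0 in those of D4, and 15 and 43 in those of D8. Its adjusted p was 0.0771 for D4 against D0, 0.168 for D8 against D4 and 0.0688 across the 3 stages. Across the stages it was 0.0457 with no filter, 0.0431 with zeros set to 1, 0.0150 with DESeq2 and 0.0292 with DESeq2 and no filter. Exons 14 to 15, at an edgeR adjusted p of 0.0747 across the stages, had 0.0457, 0.0404, 0.0199 and 0.0486 in these 4 settings. Neither circle passed across the stages with RLE factors (0.0717 for both) or column totals (0.0762 for both). With a replicate block exons 12 to 16 had 0.0998 and exons 14 to 15 had 0.151. For D4 against D0 exons 12 to 16 had 0.0379 with DESeq2, but 0.0550 with DESeq2 and no filter, and no other alternative passed. The acceptors and donors of both circles were in use on D4 in other circles, since exons 14 to 16 had 31 and 24 reads there and exons 12 to 15 had 13 and 9.

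None of the other members was called in a stage test with the filter on low counts. With no filter, exons 12 to 20, at 3 and 3 reads on D8 and 0 elsewhere, had an adjusted p of 0.0457 across the stages, where 396 of all 3662 circRNAs were called. Exons 14 to 16 had 465 and 650.0 circCPM in the D0 libraries, 720 and 576 in those of D4, and 1058 and 1421 in those of D8, with a log2 fold change of 1.24 ± 0.41 for D8 against D0 (edgeR adjusted p = 0.156). Exons 2 to 3, the circle nearest the 5′ end, had 199 and 495 circCPM in the D0 libraries, 441 and 384 in those of D4, and 617 and 947 in those of D8 (adjusted p across stages 0.373). Both are highest on D8 without overlap with D0. Exons 14 to 19 had 35 and 6 reads in the D0 libraries, 12 and 9 in those of D4, and 40 and 17 in those of D8, so its replicates differ more than its stages (adjusted p across stages 0.573), and its sign for D8 against D0 turns from -0.05 to 1.83 without D0 replicate 1. The other 5 circles tested had 53 to 111 reads and adjusted p-values across the stages from 0.165 to 0.645.

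**Figure D2:**
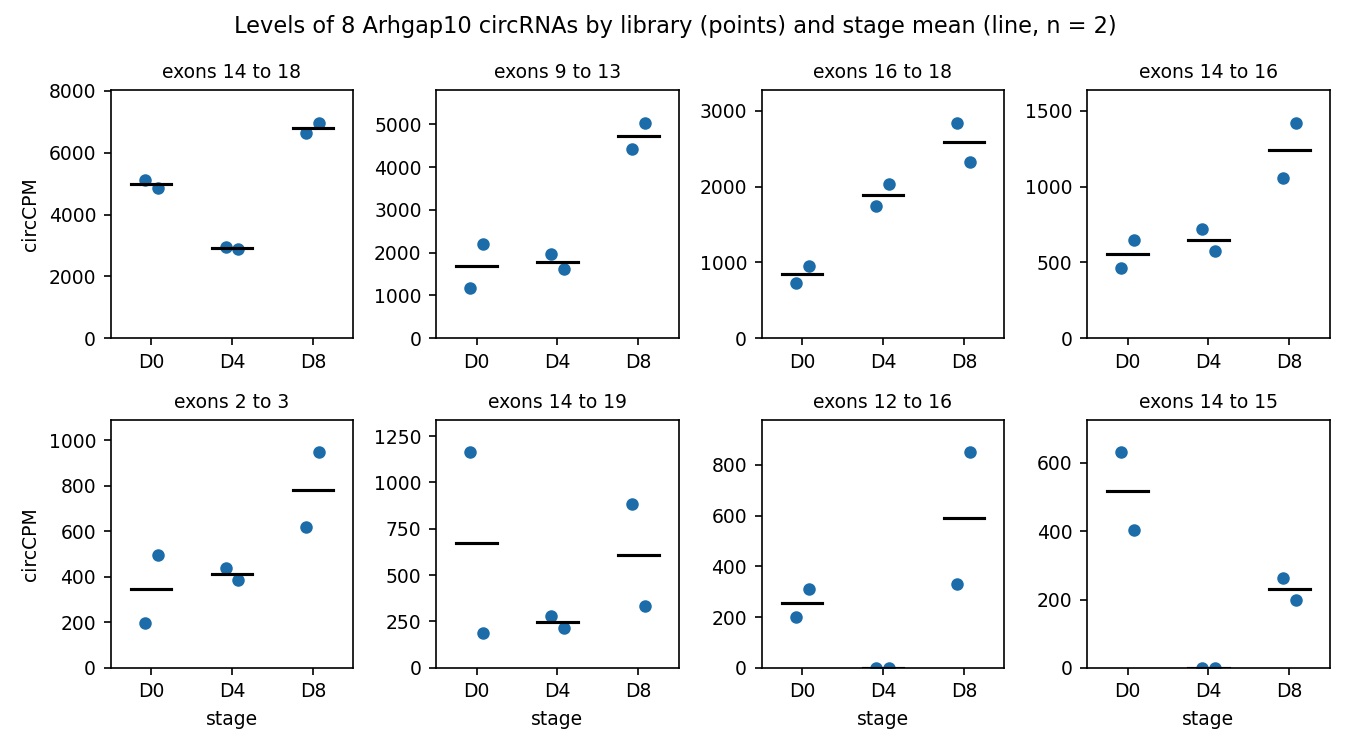
Each panel plots the level in circCPM of 1 Arhgap10 circRNA against the stage, with a point for each of the 2 libraries and a line at their mean, on a linear axis from 0. Exons 14 to 18 dips to 2915 circCPM on D4 and reaches 6800.3 on D8, exons 16 to 18 is higher at each later stage, and exons 12 to 16 and 14 to 15 stand at 0 in both D4 libraries.

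Counted over the 13 circles with enough reads for the test, 0 had an adjusted p under 0.05 across the 3 stages in edgeR's quasi-likelihood F-test, where 16 of all 1407 circRNAs tested did (1.14%). At an unadjusted p under 0.05 there were 8 of the 13, against 21.0% of all tested, and DESeq2 called 5 of the 13, against 6.26%. Between D0 and D8, where 1.49% of all tested were called, 1 of the 13 was higher (1.21% of all tested were) and 0 lower (0.284%), with 5 and 0 at an unadjusted p under 0.05 (11.1% and 7.75%). Between D0 and D4, where 3.27% were called, 1 was lower (1.07%) and 0 higher (2.2%), with 4 and 1 unadjusted (8.67% and 11.2%). Between D4 and D8, 0 were called by edgeR (0.0711%), with 6 higher and 0 lower at an unadjusted p under 0.05 (6.61% and 5.61%). For that pair DESeq2 gave an adjusted p to 4 members and called 2 of them, against 11 of 371 over all circRNAs (2.96%). The 7 circles not tested had 140 reads together and at most 19 in 1 library.

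The median log2 fold change of the 13 was 1.24 for D8 against D0, with 11 of 13 above 0, where the median of all 1407 tested was 0.05. For D8 against D4 it was 1.22, with 13 of 13 above 0, against -0.01 for all tested. For D4 against D0 it was -0.13, with 6 of 13 above 0, against 0.03. These medians describe circles that may have passed the filter through the stage where they were high.

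**Figure D3:**
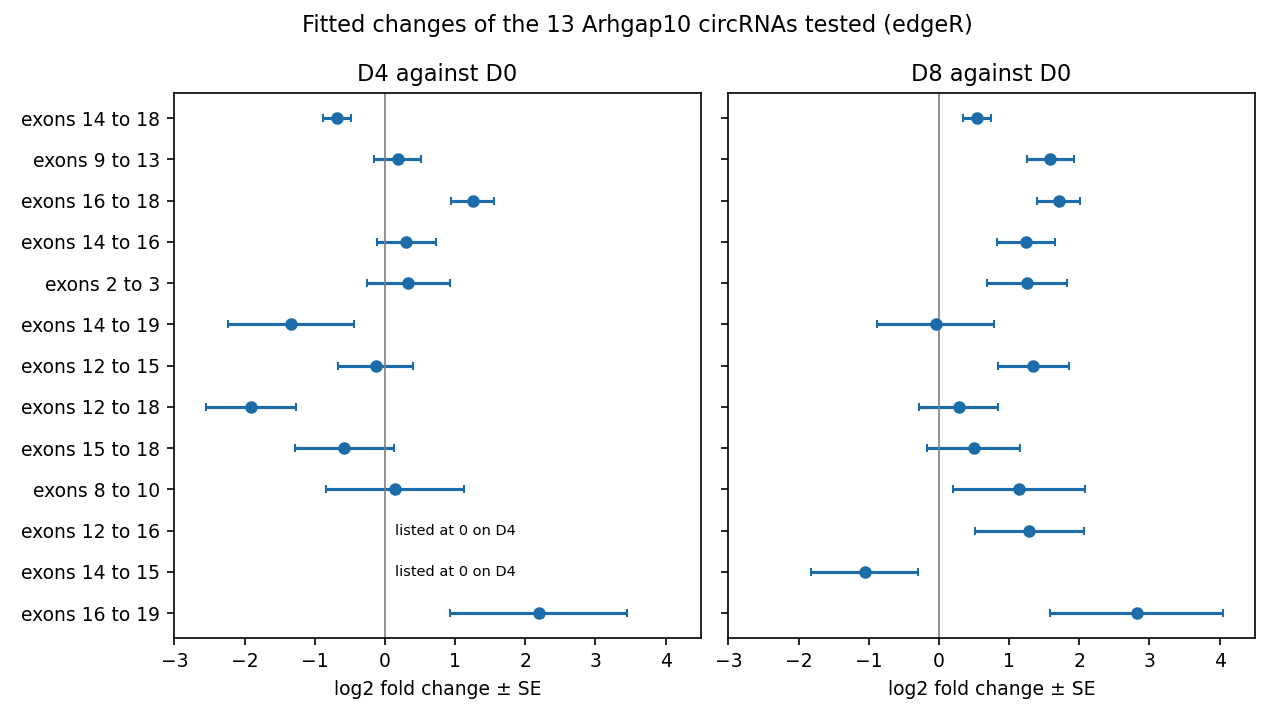
Points show the fitted log2 fold change of the 13 Arhgap10 circRNAs tested, with bars of 1 SE, for D4 against D0 on the left and D8 against D0 on the right, in order of reads. On the right 11 of the 13 lie above 0, while on the left 6 do. The circles of exons 12 to 16 and 14 to 15, listed at 0 on D4, are marked on the left without a value.

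Within the gene, exons 14 to 18 had its largest share on D0 and exons 16 to 18 on D4. In the D0 libraries exons 14 to 18 held 46.0% and 40.9% of the Arhgap10 reads, in those of D4 31.2% and 30.2%, and in those of D8 32.6% and 31.5%. Both D0 libraries lie above the rest, and the exact 95% binomial interval of the lower of them (35.9 to 46.0%) overlaps that of the highest D4 library (26.7 to 36.0%). Exons 16 to 18 held 6.57% and 8.07% in the D0 libraries, 18.4% and 21.4% in those of D4, and 14% and 10.5% in those of D8. Its D4 intervals (14.8 to 22.5% and 17.4 to 25.7%) lie clear of its D0 intervals (4.16 to 9.77% and 5.55 to 11.3%). Exons 9 to 13 held 10.4% and 18.5%, 20.9% and 16.8%, and 21.8% and 22.7% in the same order of stages, and its D0 and D4 libraries overlap.

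Read by exon ends, the acceptor of exon 14 opened 58.8% ± 10.6 (SD, n = 2) of the Arhgap10 reads on D0, then 40.1% ± 2.35 on D4 and 41.9% ± 2.21 on D8. The acceptor of exon 16 opened 7.71% ± 1.62, 22.1% ± 3.51 and 13.8% ± 2.24, and the acceptor of exon 12 opened 9.78% ± 2.01, 4.83% ± 1.86 and 9.70% ± 1.30. The donor of exon 18, shared by the circles of exons 12 to 18, 14 to 18, 15 to 18 and 16 to 18, closed 58.5% and 59.6% of the reads in the D0 libraries, 55.0% and 54.3% in those of D4, and 51.5% and 48.2% in those of D8. Its share was lower at each later stage without overlap, while the mean shares of the acceptors of exons 14, 16 and 12 were at their lowest or highest on D4. Shares of exon ends were not tested.

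**Figure D4:**
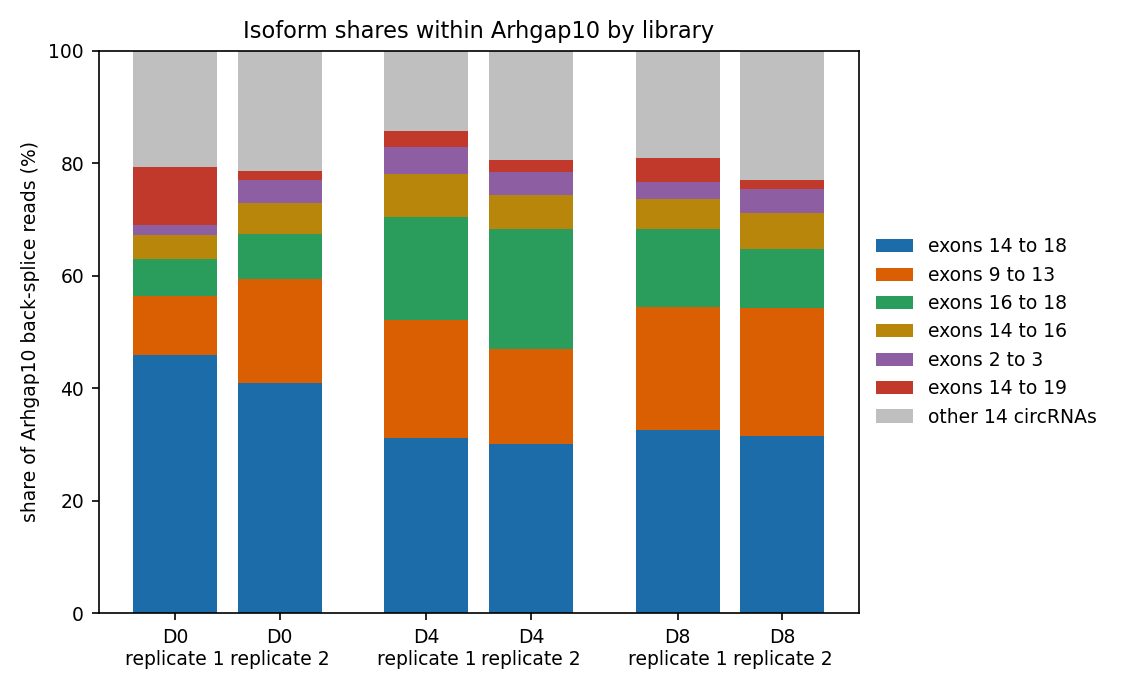
Stacked bars show, for each of the 6 libraries, the percentage of the Arhgap10 back-splice reads held by the 6 most abundant circRNAs and by the other 14 together. The part of exons 14 to 18 is 46.0% and 40.9% on D0 and 30.2% to 32.6% in the later libraries, and that of exons 16 to 18 is widest on D4 at 18.4% and 21.4%.

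Usage was tested with edgeR's diffSpliceDGE, which sets the log2 fold change of each circRNA against the other circRNAs of its gene. Between D0 and D4 the 13 Arhgap10 circles differed among themselves with an adjusted p of 0.00265 over the 264 genes tested, and Arhgap10 was the 1 gene called (0.379%). This test over a whole gene was added after seeing the data. The call held with listed zeros set to 1 (adjusted p = 0.0117), with no filter (0.0146), with a replicate block (0.0112) and without D0 replicate 1 (0.0384), D0 replicate 2 (0.00110) or D8 replicate 1 (0.0197). It was lost without D4 replicate 1 (0.399), D4 replicate 2 (0.689) or D8 replicate 2 (0.141). Over the circles left when exons 12 to 16 and 14 to 15, listed at 0 on D4, are taken out, the adjusted p was 0.414. Between D0 and D8 it was 0.553, and between D4 and D8 it was 0.188.

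By single circle, exons 14 to 15 lost usage from D0 to D4 (edgeR adjusted p = 0.0123), the 1 call among 683 circRNAs (0.146%), and exons 12 to 16 gained usage from D4 to D8 (adjusted p = 0.0287), again the 1 call among 683 (0.146%). The first call was lost without D0 replicate 1 (0.277), D4 replicate 1 (0.847), D4 replicate 2 (1), D8 replicate 1 (0.0790) or D8 replicate 2 (0.0964), and the second without D4 replicate 1 (1), D4 replicate 2 (1), D8 replicate 1 (0.0556) or D8 replicate 2 (0.711). Neither was called by limma's diffSplice, with adjusted p-values of 0.125 and 0.0724. Both calls were also lost with listed zeros set to 1 (edgeR adjusted p = 0.0815 and 0.587) and with no filter (0.114 and 0.148). Exons 16 to 18 had a usage log2 fold change of 1.04 from D0 to D4, with an unadjusted p of 0.00364 in edgeR's fit and an adjusted p of 0.344. Exons 14 to 18 had -0.30 with an adjusted p of 1, so its lower share on D4 did not pass the test.

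The introns around the circles were read from the mm9 genome. The introns on both sides of a listed circle summed to a median of 32483 bases, against 18024 for the 211 other pairs of exons 2 to 22 that could bound a circle. An inverted match between both flanking introns, the kind of sequence that can pair across a circle, was found with blastn for 11 of the 20 listed circles (55.0%) and for 78 of the 211 other pairs (37.0%). For exons 14 to 18, flanked by introns of 17564 and 33758 bases, the best-scoring such match was 164 bases at 80.5% identity. For exons 2 to 3, whose intron upstream has 66706 bases, it was 186 bases at 89.2%, and for exons 16 to 18 none was found. Longer introns offer more bases to match, and the part of their length in the difference was not tested.

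The study predicted microRNA sites in circRNAs with miRDB. A simpler search was made here, and its result cannot be set against those predictions. The spliced circles were read on their own strand, across the back-splice too. They were searched for the 7 bases that pair with positions 2 to 8 of 4 microRNAs of 1 seed family. The mature sequences, from RefSeq (GRCm38.p6), are shown with the seed in capitals to show that it is shared.
miR-15a-5p: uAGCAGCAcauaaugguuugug
miR-16-5p: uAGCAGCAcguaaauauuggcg
miR-195a-5p: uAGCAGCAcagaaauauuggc
miR-322-5p: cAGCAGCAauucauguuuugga
The list of microRNAs also held miR-466d-5p, which was not searched. The letters searched were TGCTGCT, and 0 of the 20 Arhgap10 circles hold them, against 390 of the 3338 circles that could be spliced from annotated exons (11.7%). Among circles within 20% of a member's length, the share that hold them ran from 3.33% (exons 14 to 16) to 16.8% (exons 12 to 20). For exons 9 to 13 it was 10.1%. The 20 circles share exons, and 17 share an end with another, so they are not 20 separate searches. The result says only that these letters are not in the spliced exons.

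Other genes of the pathway were read from lists of names. RhoGAPs outside the GRAF family had 29 circRNAs from 14 genes, 14 tested, of which 1 rose from D0 to D8 (1.21% of all tested) and 0 fell (0.284%). That circle comes from Srgap1, a RhoGAP of Slit-Robo signalling, with 1959 and 2012 circCPM in the D0 libraries, 3460 and 3697 in those of D4, and 4474 and 5684 in those of D8 (log2 fold change 1.45 ± 0.23 against D0, edgeR adjusted p = 0.0329). RhoGEFs had 47 circRNAs from 19 genes, 18 tested, of which 1 fell from D0 to D4 (1.07% of all tested) and 0 rose (2.2%). That one comes from Arhgef40, with 1362 and 1671 circCPM in the D0 libraries, 209 and 336 in those of D4, and 463 and 612 in those of D8 (log2 fold change -2.37 ± 0.46, edgeR adjusted p = 0.0373). Effectors of these GTPases and adhesion kinases, such as Diap2 and Ptk2, had 26 circRNAs from 12 genes, 9 tested and 0 called in any stage pair, where 3.27% (D4 against D0), 1.49% (D8 against D0) and 0.0711% (D8 against D4) of all tested were called. The median log2 fold change for D8 against D0 was 0.75 for the other RhoGAPs, 0.32 for the RhoGEFs and 0.22 for the effectors, where Arhgap10 had 1.24. For D8 against D4 it was -0.07, 0.01 and -0.88 in the same order, where Arhgap10 had 1.22.

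Summed over each parental gene, the profile most like that of Arhgap10 over the 6 libraries was that of Agap1, with a Pearson r of 0.977 on log2(circCPM + 10) among 836 genes. It was followed by Ugcg (0.964), Setbp1 (0.964), 4921513D23Rik (0.960) and Lsm14a (0.951). Ugcg, a glucosylceramide synthase gene, had 810 ± 299.5 circCPM (SD, n = 2) on D0, against 685 ± 16.1 on D4 and 2127 ± 202 on D8, and Agap1 had 1059 ± 52.8, 967 ± 77.4 and 1652 ± 91.9. The points share their libraries and depth, and no p is given.

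The cells were checked through circRNAs of marker genes, since linear RNA was removed. Of 8 adipocyte markers 3 were listed, Pparg, Lpl and Acaca, with 9 circRNAs that summed to 124 to 764 circCPM in the D0 libraries, 1045 to 1152 in those of D4 and 2092 to 2116 in those of D8, with 2 tested and 0 called, where 1.14% of all tested were called across the stages. All circles of Pparg and Lpl were listed at 0 on D0, and Cebpa, Adipoq, Plin1, Fabp4 and Cidec had no circle. Of 6 preadipocyte and fibroblast markers only Pdgfra was listed, with 266 to 309.5 circCPM in the D0 libraries, 0 to 69.7 in those of D4 and 88.2 to 98.7 in those of D8. The 4 endothelial and 3 pericyte markers had 0 circRNAs, and of 5 immune markers Emr1 had 1, at 78.9 to 220.4 circCPM on D8 and 0 elsewhere. The adipocyte sum moved with the Arhgap10 sum on D8 but not on D4, and its part in the Arhgap10 values was not tested.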

How the data were processed

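Reads were trimmed by the authors with fastp 0.20.1 and mapped with BWA-MEM 0.7.17 to mm9, and CIRI2 identified the circRNAs library by library. The deposited values are raw counts of back-splice reads per circRNA and library, kept where both replicates of a stage had 2 or more reads. FastQC 0.11.9 and HISAT2 2.2.0 are named in the submitters' processing notes.

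Levels (circCPM) used the column totals. Counts were tested with edgeR 4.0.16 in R 4.3.3 by the quasi-likelihood F-test on all 6 libraries (TMM, filterByExpr with minimum count 10 and total 15, Benjamini-Hochberg over 1407 circRNAs, threshold 0.05), with stage pairs as contrasts. Usage was tested with diffSpliceDGE. Alternatives used DESeq2 1.42.0, limma 3.58.1, RLE factors, column totals, no filter, a replicate block and each library left out in turn. Listed zeros set to 1, DESeq2 without a filter and usage without circles listed at 0 on D4 were added after seeing the data, as was the usage test over a whole gene. Introns were compared with blastn 2.17.0 (E-value up to 1e-05), and exons were taken from GENCODE for mm9. Shares have exact binomial intervals (95%).

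The members and lists were chosen with earlier results of these data known. Every library's value is given for the 6 circRNAs with the most reads, those with an adjusted p under 0.05 in a stage or usage test, and the 2 that the study names. The 5 genes of most similar profile had a mean of 10 or more reads per library. The mRNA and qPCR data were not used here. One gene list is not reported here.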

Additional observations from a re-analysis of the deposited data

How the results depend on the processing

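The sums and the shares of the leading circle kept their direction under every alternative run. The detected numbers on D0 and D4 tied at 11 and 11 with 5 or more reads in both replicates, and at 15 and 15 with 2 or more in either. Few calls held. Across the 3 stages the number of Arhgap10 circles called was 0 with all libraries, 6 with no filter, 5 with DESeq2, 5 with zeros set to 1 and 3 with DESeq2 and no filter, and 0 to 2 with 1 library left out. For D4 against D0 it was 1, against 0 with no filter, 0 with a replicate block, 2 with DESeq2 and 0 to 1 with a library left out. For D8 against D0 it was 1, against 0 with RLE factors, column totals, no filter, a replicate block or DESeq2 without a filter, 2 with DESeq2, 2 with zeros set to 1 and 0 to 1 with a library left out. For D8 against D4 it was 0, against 2 with DESeq2 and 0 to 1 with a library left out. The number with changed usage fell from 1 to 0, for D4 against D0 and for D8 against D4, with no filter, with zeros set to 1 and with limma, and was 0 to 1 with a library left out. It was also 0 without the circles listed at 0 on D4, which were themselves the circles called. The adjusted p of usage over the whole gene for D4 against D0 was 0.0117 with zeros set to 1, 0.00110 to 0.689 with a library left out and 0.414 over the circles not listed at 0 on D4.

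Over all circRNAs, the 16 called across the stages became 5 with column totals, 396 with no filter, 4 with a replicate block, 83 with DESeq2, 102 with zeros set to 1, 45 with DESeq2 and no filter, and 2 to 58 with a library left out. The 46 for D4 against D0 became 17 with the block, 71 with DESeq2, 91 with zeros set to 1 and 4 to 67 with a library left out, with 4 when either D4 library was the one left out. The 21 for D8 against D0 became 4, 51 and 57 under the same settings, 33 with DESeq2 and no filter, and 11 to 27 with a library left out, with 11 when either D4 library was the one left out. The 1 for D8 against D4 became 0, 11 and 2 under those settings, 3 with DESeq2 and no filter, and 0 to 15 with a library left out.

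Signs turned for D4 against D0 without D0 replicate 1, to -0.17 for exons 9 to 13, -0.14 for exons 2 to 3 and 0.53 for exons 14 to 19, and ran up to 0.73, up to 1.14 and down to -2.11 with another library left out. For D8 against D0 exons 14 to 19 turned to 0.0054 with no filter and 0.14 with a replicate block, and ran from -0.88 to 1.83 with a library left out. It was above 0 when D0 replicate 1, D4 replicate 2 or D8 replicate 2 was the one left out. The cause of these shifts was not tested. The log2 ratio of the sums for D4 against D0 was -0.18 with TMM library sizes, and the leading share on D8 was 32.9% over circles with a mean of 5 or more reads.

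Whether replicates of the same number share an animal or a culture is not stated. Their deviations from the stage means had correlations of 0.0351 for D4 and D0, 0.0699 for D8 and D0, and 0.0469 for D8 and D4. With 2 libraries per stage these values cannot settle it.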
